A study of Mus musculus with 7 samples.

Results

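Sites on the 19 autosomes that were open in neural progenitors and closed, as far as peak calling shows, in every stem-cell peak list numbered 6724. They were chosen from 39692 autosomal ATAC-seq peaks of wild-type neural progenitor cells (NPC), so they made up 16.9% of these (95% interval 16.6% to 17.3%). Each overlaps, by 1 bp or more, a peak of NPC with the deltaFT deletion. In wild-type coordinates, none overlaps a peak in the 3 lists of female embryonic stem cells (mESC) or in the 4 lists of male mESC. The matched deltaFT peaks were not held to this. The 6724 sites are called NPC-only sites below. Presence and absence chose them, so those values are given as a description and were not tested.

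The 7 samples are 1 per group. The deltaFT NPC (line sgdgb2) and the wild-type NPC (line C2) were grown in N2/B27 medium with FGF and EGF at 10 ng/mL, and the female mESC (line F1216) with serum and mLIF. All 3 are female F1 cells of a 129S1 x Cast:EiJ cross, and each NPC genotype is a single line, so genotype and line cannot be told apart. deltaFT removes a boundary region of the X chromosome that holds the macrosatellite Dxz4, away from the autosomes described here. The other 4 samples are male J1 mESC (TXY) that carry a doxycycline-inducible Xist on the X. They comprise TXY deltaRepA with 2 ug/mL doxycycline for 48 hours, TXY WT with the same treatment, and both genotypes untreated. Tn5, the transposase of ATAC-seq, inserts adapters into accessible DNA, and each replicate used 50K cells and paired reads of 75 bp.

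Neural progenitors of this kind are self-renewing cells that can form neurons and glia. As background, cells that leave pluripotency keep most promoters accessible, while many distal enhancers open or close with the transcription factors present. In neural stem cells such factors include SOX, NFI, POU and basic helix-loop-helix proteins. One label of the mESC sample names neural progenitors, but its title and medium are those of mESC, and these were followed. No gene annotation or genome sequence of mm9, the build of the files, was used here. The sites are therefore named by position, the NPC identity was not checked against marker genes, and no sequence is shown.

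The 2 NPC lists held 36036 autosomal peaks with 10845382 reads in deltaFT and 39692 with 10724324 reads in wild type. The stem-cell lists held between 27538 and 140048 autosomal peaks. The TXY lists, from merged libraries, went down to a −log10 p of about 2 and the mESC library lists to about 3, so absence from a TXY list was the stricter demand. Intervals in the text are exact Clopper-Pearson 95% intervals. They cover counting error only, as the reads carry no molecular identifiers and may repeat a molecule.

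Most NPC sites were found either in no stem-cell list or in all of them. Of 26181 wild-type peaks with a deltaFT peak, 6724 (25.7%, 25.2% to 26.2%) had no stem-cell peak and 11102 (42.4%) had one in all 7 stem-cell lists. The other 8355 were spread over 1 to 6 lists, from 905 sites in 3 lists to 2143 in 6. Below, the sites in all 7 lists are called shared sites, and those in 1 to 6 lists partly shared sites.

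**Figure D1:**
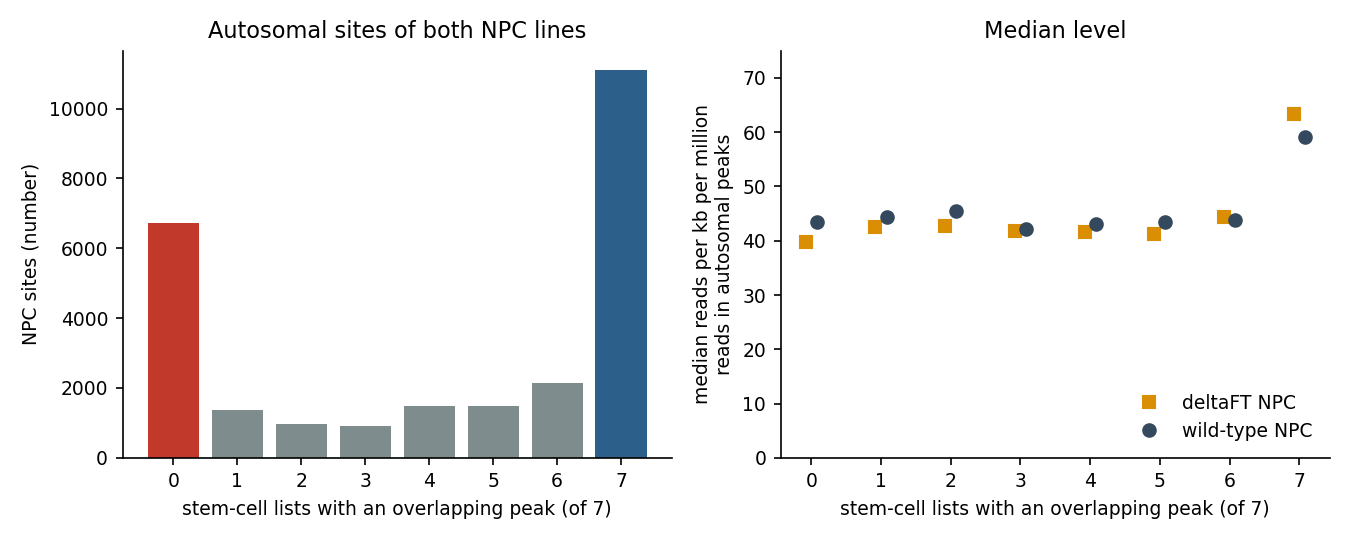
Left, number of autosomal sites found in both NPC lines (y axis) by how many of 7 stem-cell lists have an overlapping peak (x axis). Red is the 6724 NPC-only sites and blue the 11102 shared sites. Right, median level of the same sites in deltaFT NPC (squares) and wild-type NPC (circles), in reads per kb per 1000000 reads in autosomal peaks. The NPC-only sites stand at 39.8 and 43.5, and the shared sites at 63.4 and 59.0.

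The NPC-only sites were weaker in NPC than the shared sites and about as strong as the partly shared ones. Their level, in reads per kb of peak per 1000000 reads in autosomal peaks, had a median of 39.8 in deltaFT NPC and 43.5 in wild-type NPC. Its 10th and 90th percentiles were 23.8 and 79.2 in deltaFT and 26.0 and 82.9 in wild type. The partly shared sites had medians of 42.5 in deltaFT and 43.8 in wild type, and the shared sites 63.4 and 59.0. From 0 to 6 lists the medians ran from 39.8 to 44.4 in deltaFT and from 42.2 to 45.5 in wild type. Shared sites had to be in the mESC list of peaks reproducible between libraries. That list overlapped 12592 autosomal wild-type NPC peaks, against 21202 to 23320 for the TXY lists. The part of this demand in the contrast was not tested. In raw reads the NPC-only sites held a median of 186.5 in deltaFT and 195 in wild type, against 455.5 and 360.5 for the shared sites.

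The NPC-only sites were narrower than the shared ones, and here too the part of the reproducible mESC list was not tested. Their median width was 442 bp in deltaFT and 427 bp in wild type, against 671 and 589 bp for the shared sites. The partly shared sites were no wider than the NPC-only sites, with medians of 439 bp in deltaFT and 399 bp in wild type. The 10th and 90th percentiles of NPC-only widths were 255 and 698 bp in deltaFT and 234 and 675 bp in wild type.

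**Figure D2:**
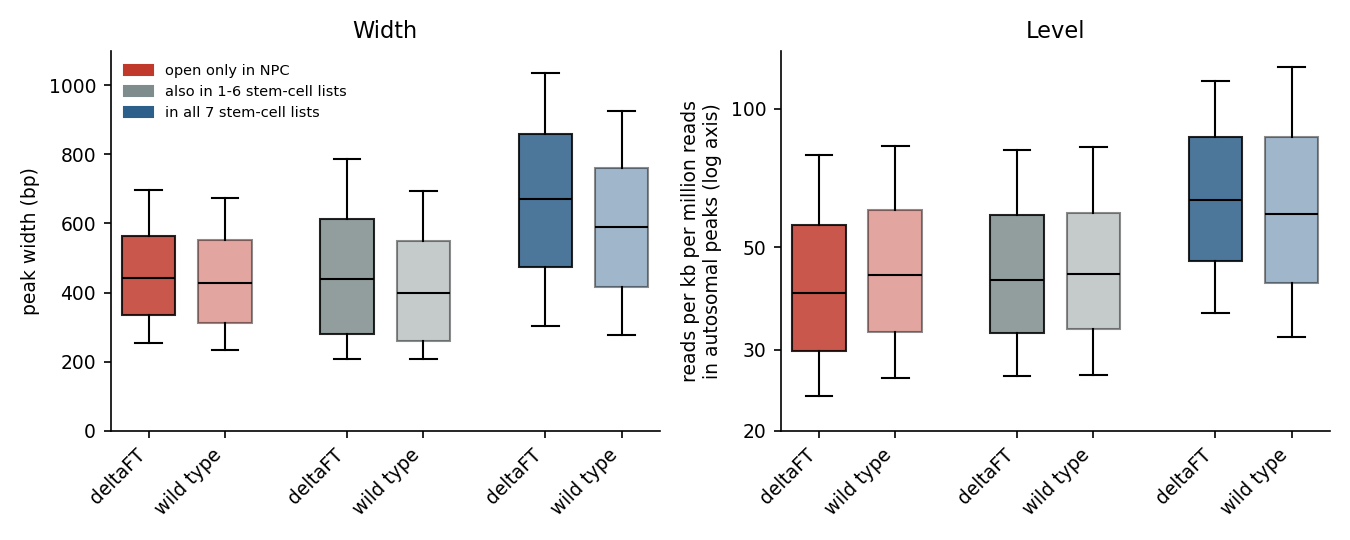
Width in bp (left) and level in reads per kb per 1000000 reads in autosomal peaks (right, log axis) for NPC-only, partly shared and shared sites. Each class shows deltaFT NPC (dark) and then wild-type NPC (pale). Boxes span the quartiles with the median as a line, and whiskers the 10th to 90th percentiles. The NPC-only medians lie below the shared medians for both measures, with overlapping boxes.

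Both libraries of each line held nearly all of these sites. Of the 6724, 6713 had a peak in deltaFT library 1 and 6715 in deltaFT library 2, and all had one in each wild-type library. Because the reproducible lists were made from these libraries, this is a description and not a separate check. In the authors' fold enrichment over local background, the median NPC-only site ranked at percentile 79.1 and 75.6 within the lists of deltaFT libraries 1 and 2, and at 77.7 and 81.8 within those of wild type. The shared sites ranked at 87.2 and 84.9 in deltaFT and at 85.2 and 86.0 in wild type.

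The point of highest signal (summit) was placed alike in the 2 lines. Between library 1 of deltaFT and library 1 of wild type, summits of the same NPC-only site lay a median of 38 bp apart, and 40 bp apart for library 2 of each. Between libraries of 1 line the distance was 40 bp in deltaFT and 31 bp in wild type. The distance between lines was thus about that between the libraries of deltaFT. The 90th percentile between lines was 149 bp for library 1 and for library 2. For the wider shared sites it was 217 bp for library 1 and 240 bp for library 2. Their medians between lines were smaller than those of NPC-only sites, at 32 and 35 bp.

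The strongest NPC-only sites were taken as the 10 with the best rank of level in the weaker of the 2 lines. First was chromosome 2 at 151429333 to 151429929, with 1472 reads in deltaFT and 1538 in wild type, or levels of 220.0 and 239.8. The widest of the 10, chromosome 14 at 105987321 to 105988347, had 2505 reads in deltaFT and 2562 in wild type. It lay 96 bp from a stem-cell peak. Chromosome 15 at 12295552 to 12296315 had 1544 and 1912 reads, and chromosome 17 at 63634602 to 63635105 had 1148 and 1267. All 10 lay above the 90th percentile of the shared sites, which was 114.9 in deltaFT and 123.1 in wild type.

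Among the 10, levels ran from 167 to 221 in deltaFT and from 165 to 309 in wild type. The lines were close at chromosome 4 at 111269832 to 111270375, with 1160 reads in deltaFT and 1054 in wild type. They were least alike at chromosome 2 at 173083007 to 173083531, with 1071 reads in deltaFT and 1742 in wild type, a log2 difference in level of -0.89 (-0.997 to -0.775). Chromosome 4 at 40883327 to 40884072 had similar levels, 211.0 in deltaFT and 218 in wild type, but a different allelic balance. The first-listed allele held 70.7% (64.2% to 76.5%) of its allelic reads in deltaFT and 46.3% (38.8% to 54.0%) in wild type.

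At the edges of the definition the values were as follows. Of the NPC-only sites, 722 (10.7%) lay under 500 bp from a stem-cell peak, the nearest at 1 bp, on chromosome 13 at 69879275 to 69879501, with 246 reads in deltaFT and 167 in wild type. Just outside, the site with the smallest overlap with a stem-cell peak, 2 bp, lay on chromosome 6 at 141517200 to 141517405 with 245 and 65 reads. Its deltaFT peak was also the match of another wild-type peak. The smallest overlap between the lines among NPC-only sites was 11 bp, on chromosome 15 at 95925611 to 95925964, with 42 reads in deltaFT and 86 in wild type. A matched deltaFT peak can also reach into a stem-cell peak, and its reads then cover part of that peak. On chromosome 4 the site at 82030459 to 82030621 lay 9 bp from a stem-cell peak. Its deltaFT peak ran from 82030183 to 82030740, with 389 reads in deltaFT and 45 in wild type. Such sites were not counted.

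A further 7120 autosomal wild-type peaks had no stem-cell peak but also none in the reproducible deltaFT list. Of these, 4321 (60.7%) had a peak in at least 1 deltaFT library list and 2405 (33.8%) in both. They were weaker: the median wild-type read count was 99, and that of the NPC-only sites 195.

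The NPC-only sites were spread over every autosome. They made up between 14.1% (12.7% to 15.7%) of the wild-type peaks of chromosome 8 and 21.1% (18.9% to 23.5%) of those of chromosome 18, with a median over autosomes of 17.5%. Chromosomes 1, 7, 8, 11 and 19 each stood below 15%, and their intervals did not reach the lower bounds of chromosomes 3, 4, 5, 12 and 18. The number of sites ran from 155 on chromosome 19 to 554 on chromosome 2.

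Most of them lay away from shared sites but not away from stem-cell peaks. The median distance to the nearest shared site was 69.4 kb, and 9.98% lay within 10 kb of one. For partly shared sites the median was 47.7 kb and 19.7% lay within 10 kb. Part of this contrast follows from the definition. A site beside a shared site can touch the stem-cell peak there, and is then not NPC-only. Under 500 bp from a shared site lay 0.372% of NPC-only and 7.49% of partly shared sites. The nearest peak of any stem-cell list was a median of 3.18 kb away, with a 90th percentile of 13.8 kb. The TXY lists hold between 123996 and 140048 autosomal peaks each.

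Only 36 NPC-only sites were more than 50 kb from any stem-cell peak. The most isolated, 122.5 kb away, was at chromosome 9, 26052569 to 26052873, with 152 reads in deltaFT and 117 in wild type. Next came chromosome 4 at 128128690 to 128129021, 92.3 kb away, with 260 reads in deltaFT and 84 in wild type. The peak there was 788 bp wide in deltaFT and 332 bp in wild type, and the log2 level difference was 0.37. The list of deltaFT library 2 gave no fold enrichment for it. At the chromosome 9 site the widths were 627 and 305 bp and the log2 level difference -0.68.

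Many of the sites had another nearby, though a smaller share than in the other classes, which hold more sites. Of 6724, 4231 (62.9%) had another NPC-only site within 100 kb. The partly shared sites reached 67.7% and the shared sites 79.1%. The share expected from the density of sites was not computed, and the runs below are given for NPC-only sites alone. Along the ordered wild-type peaks, 3822 NPC-only sites stood alone and the others formed runs with no other wild-type peak between them. The longest run held 7 sites over 402 kb, on chromosome 5 at 140338811 to 140740622, with 80 to 378 reads per site in wild type. A run of 6 covered 109 kb on chromosome 6 at 32305657 to 32414456, where 1 site lay 74.5 kb from the nearest stem-cell peak. Another run of 6 covered 93.3 kb on chromosome 19 at 23954395 to 24047674, with 68 to 582 reads per site.

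Windows of 200 kb with at least 7 NPC-only sites numbered 6. The densest, on chromosome 13 between 56600001 and 56800000, held 8 among its 19 wild-type peaks. Read counts of these 8 ran from 57 to 563 in deltaFT and from 95 to 585 in wild type. The median log2 difference of their levels, deltaFT over wild type, was -0.67. The windows on chromosome 2 between 156800001 and 157000000 and on chromosome 5 between 139800001 and 140000000 had medians of 0.91 and 0.85, or 0.18 and 1.17 on reads per peak. The windows on chromosomes 3, 4 and 11 had smaller median level differences, of 0.26, -0.43 and 0.26. Medians of both signs thus occurred among these windows, and each window held sites of both signs, with 1 sample per line.

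How far the NPC lines differed at these sites was asked next, with 1 sample per line and hence no test. The median NPC-only site was a little lower in deltaFT, by a log2 level of -0.11, where all 26181 matched autosomal peaks had a median of 0.01. On reads per peak the medians were -0.06 and 0.10. By level, partly shared sites stood at -0.02 and shared sites at 0.07. The order of the 3 classes held within each of the 4 weaker quintiles of level, where medians ran from -0.13 to -0.05 for NPC-only sites and from 0.10 to 0.23 for shared sites. In the strongest quintile the medians were -0.05 and -0.08, and there the order did not hold.

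Of the NPC-only sites, 465 (6.92%, 6.32% to 7.55%) had a level at least 2-fold lower in deltaFT, against 3.79% of all matched autosomal peaks. At least 2-fold higher were 166 (2.47%), against 2.43%. The lower calls were thus above the background share and the higher calls at it. Shared sites had 1.26% lower and 1.92% higher. The level divides by the width of each line's own peak, and reads per peak gave another split, with 846 lower (12.6%, background 7.24%) and 639 higher (9.50%, background 11.2%). By both measures at once, 360 were lower (5.35%, background 2.77%) and 141 higher (2.10%, background 1.89%). A deltaFT peak can span several wild-type peaks and was then matched to each, at 207 NPC-only sites (3.08%) and 6.38% of all matched peaks. Without these sites, 455 of 6517 were lower by level (6.98%, background 3.93%) and 144 higher (2.21%, background 1.99%). By reads per peak 845 were then lower (13.0%, background 7.72%) and 502 higher (7.70%, background 7.29%), so the share of higher calls below the background was not seen there. Both lists had to hold a peak, so sites lost from either line are not counted.

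**Figure D3:**
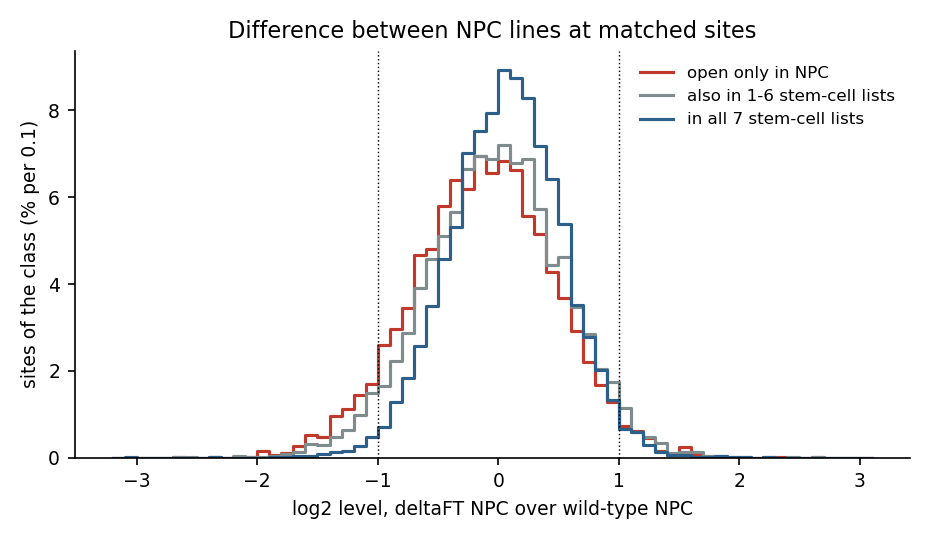
Distribution of the log2 level of deltaFT NPC over wild-type NPC (x axis) at matched sites, as percent of the sites of each class per 0.1 (y axis). The dotted lines mark 2-fold. The NPC-only curve (red) has 6.92% of its sites at or left of the left line and 2.47% at or right of the right one, and the shared curve (blue) 1.26% and 1.92%.

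Single sites differed by far more than the median. Among those with at least 50 reads in each line, the largest difference towards lower in deltaFT was on chromosome 6 at 42346481 to 42346790, with 105 reads in deltaFT and 350 in wild type. Its levels were 20.9 and 104.9, a log2 difference of -2.33 (-2.66 to -2.01). Its fold enrichment in the authors' library lists was 7.32 and 6.45 in deltaFT and 12.9 and 13.6 in wild type. Chromosome 15 held 2 of the next 3, at 8846342 to 8846845 with 132 reads in deltaFT and 685 in wild type, and at 5767934 to 5768286 with 147 and 589. The other, on chromosome 16 at 46290273 to 46290754, had 188 reads in deltaFT and 784 in wild type.

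In the other direction chromosome 13 at 114254438 to 114255180 came first, with 1397 reads in deltaFT and 297 in wild type, a log2 difference in level of 2.21 (2.03 to 2.40). The authors' fold enrichment of this site, each value within its own library list, was 11.9 and 9.72 in the deltaFT libraries and 6.80 and 9.29 in the wild-type libraries. These values are scaled within each list, and library 2 of wild type stands near library 2 of deltaFT. The interval of the log2 difference covers no spread between libraries. Chromosome 10 at 93876384 to 93877186 had 1130 reads in deltaFT and 266 in wild type. On chromosome 10 at 5792526 to 5792965 there were 510 reads in deltaFT and 79 in wild type. The site lay 309 bp from a stem-cell peak. Its deltaFT peak began at 5792179, so its deltaFT reads may cover part of that peak. This site was also unequal between alleles, as 93.0% of its allelic reads in deltaFT and 91.8% in wild type were of the first-listed allele.

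Neighbouring NPC-only sites tended to differ between the lines in the same direction, most so at short range. Of 618 pairs of neighbours up to 10 kb apart, 85 were matched to the same deltaFT peak and so shared its reads. Over the 520 pairs in which each site had a deltaFT peak of its own, the log2 levels of deltaFT over wild type had a Pearson r of 0.43 and a Spearman rho of 0.45. At 10 to 50 kb r was 0.19, at 100 to 500 kb 0.17 and at 500 kb to 5 Mb 0.14. For shared sites r was 0.53 within 10 kb and 0.32 at 500 kb to 5 Mb, so the relation was not particular to the NPC-only sites. On reads per peak r within 10 kb was 0.28 for NPC-only and 0.46 for shared sites. These are correlations across sites of the same 2 samples, and neighbours share libraries and chromosome.

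The cells are hybrids, so reads that cover a strain difference show which parental copy is open. The files do not tie either allele to a strain, and the text speaks of the first-listed and the second-listed allele. Of the NPC-only sites, 4936 had at least 20 allelic reads in each line, and 360 had none in either. Over the 4936 the alleles balanced: the first-listed held 48.96% of 647304 allelic reads in deltaFT and 50.4% of 618914 in wild type. By autosome the share ran from 46.2% to 51.8% in deltaFT and from 41.4%, on chromosome 19, to 58.7%, on chromosome 11, in wild type.

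Where both lines strongly favoured an allele at a site, it was nearly always the same allele, in the NPC-only sites as in all matched peaks. An allele with at least 80% of reads was found at 247 sites (5.004%) in deltaFT and 260 (5.27%) in wild type, against 3.27% and 3.23% of all matched autosomal peaks. At 124 sites (2.51%, 2.09% to 2.99%) it was the same allele in both lines, against 1.42% of all matched peaks. Of these, 59 favoured the first-listed allele (1.20%, background 0.659%) and 65 the second-listed (1.32%, background 0.757%). At 0 sites were the lines unequal in opposite directions, which by its interval allows up to 0.0747%, and 0.0295% of all matched peaks were so. With 10 allelic reads as the minimum there was 1 of 5500, against 0.0362%. Of the 247 sites unequal in deltaFT, 50.2% (43.8% to 56.6%) were unequal in wild type too, against 43.2% of all matched peaks and 33.0% (26.3% to 40.3%) of shared sites. Of the 260 unequal in wild type, 47.7% (41.5% to 54.0%) were unequal in deltaFT too, against 43.8% of all matched peaks and 36.3% (29.0% to 44.1%) of shared sites, with overlapping intervals. Shared sites had the same allele at 80% or more in both lines at 61 of 9266 (0.658%, 0.504% to 0.845%).

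**Figure D4:**
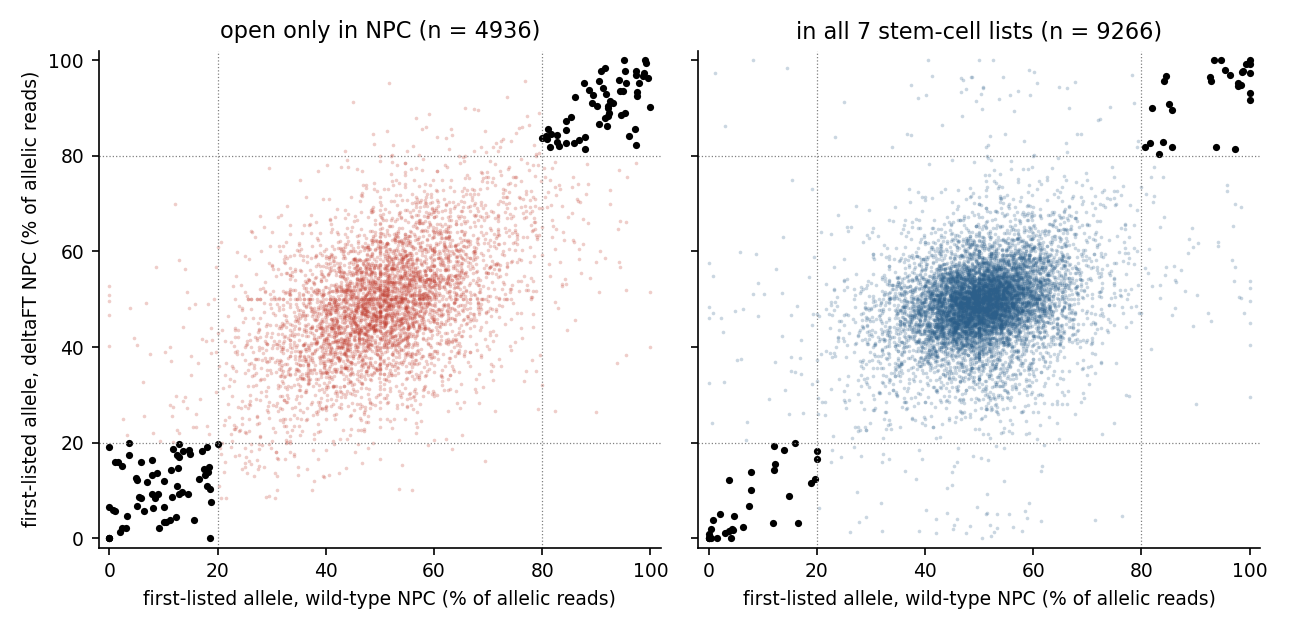
Share of allelic reads from the first-listed allele in deltaFT NPC (y axis) and wild-type NPC (x axis), in percent, for NPC-only sites (left) and shared sites (right). Each point is 1 site with at least 20 allelic reads in each line. Black points have 80% or more on the same allele in both lines, 124 on the left and 61 on the right, and the dotted lines mark 20% and 80%. The cloud on the left is stretched along the diagonal (r = 0.58), that on the right less so (r = 0.32).

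The agreement between lines was not limited to extreme sites. Over the 4936 NPC-only sites the first-allele shares of the lines had a Pearson r of 0.58 and a Spearman rho of 0.50. Partly shared sites had 0.48 and 0.39, and shared sites 0.32 and 0.26. The SD of the shares across NPC-only sites was 13.8 points in deltaFT and 14.4 in wild type, against 9.95 and 10.3 across shared sites. At 929 NPC-only sites (18.8%, 17.7% to 19.9%) both intervals lay off 50% on the same side, against 13.5% of all matched peaks, and at 86 (1.74%) on opposite sides, against 2.05%. Both lines share the cross, the positions of strain differences and the read processing, which the points therefore have in common.

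The contrast with the shared sites was also read within classes of depth. With 100 to under 200 allelic reads in the line with fewer, the same allele held 80% or more in both lines at 3.34% of NPC-only sites (2.38% to 4.53%, 39 of 1169). The value was 1.77% for partly shared and 0.765% (0.468% to 1.18%) for shared sites. With 50 to 99 reads the shares were 2.87%, 2.04% and 0.958%. With 20 to 49 reads they were 1.92%, 1.32% and 0.833%, and the intervals of NPC-only and shared sites overlapped. With 200 or more they were 1.02% (0.331% to 2.36%), 1.07% and 0.329% (0.164% to 0.587%), on 5 NPC-only sites, and again the intervals overlapped. In the class of 100 to under 200 reads r was 0.73 for NPC-only, 0.62 for partly shared and 0.36 for shared sites. With 200 or more reads the values were 0.69, 0.67 and 0.45, and with 20 to 49 reads 0.44, 0.33 and 0.20.

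**Figure D5:**
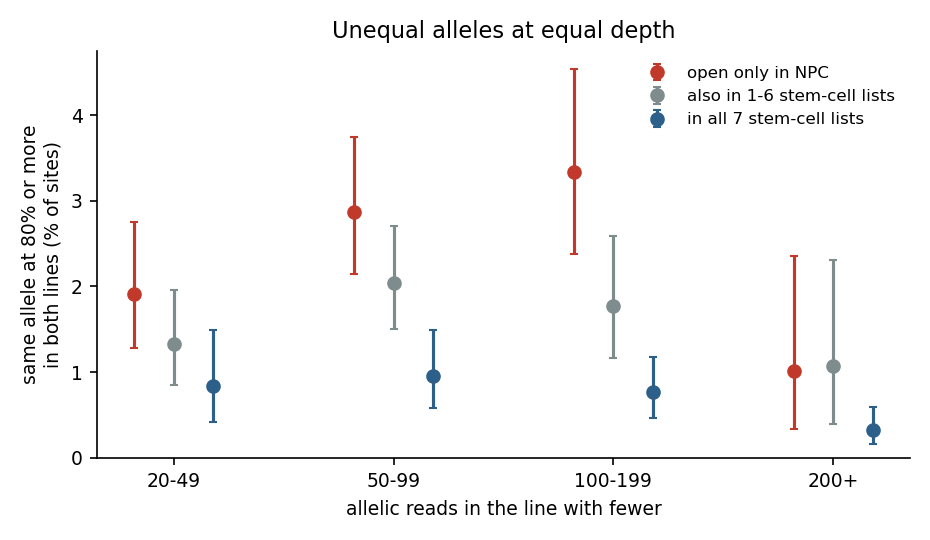
Percent of sites at which the same allele held 80% or more of reads in both NPC lines (y axis), by the number of allelic reads in the line with fewer (x axis). Points are NPC-only (red), partly shared (grey) and shared sites (blue), and bars are exact 95% intervals. NPC-only sites lie above shared sites with separate intervals at 50 to 99 and at 100 to under 200 reads, and with overlapping intervals at 20 to 49 and at 200 or more.

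Pooled neighbours of the unequal sites were mostly not unequal themselves. Of the 124, 108 had other peaks with at least 20 allelic reads within 100 kb in both lines, and at 100 of these the pooled neighbours lay between 20% and 80% in both lines. The median first-allele share of the neighbours was 48.6% in deltaFT and 50.6% in wild type. Of the 124, 6 lay within 100 kb of another. No background was computed for these counts, and 3.27% of matched peaks in deltaFT and 3.23% in wild type reach 80% at all. The counts therefore do not show how local the inequality was. Between neighbouring NPC-only sites up to 10 kb apart, the mean first-allele share of the lines had a Pearson r of 0.26 (352 pairs). At 10 to 50 kb r was 0.09, and shared sites had 0.23 and 0.105. Pairs that share a deltaFT peak were not removed. Every autosome held at least 1 of the 124 sites, with most, 11 each, on chromosomes 7 and 13. All 8 on chromosome 11 favoured the first-listed allele. Over the NPC-only sites of that chromosome it held 58.7% of allelic reads in wild type but 48.4% in deltaFT. In read depth the 124 sites had a median of 147 reads in deltaFT and 154.5 in wild type, against 204 and 213 for the other NPC-only sites with enough allelic reads. Allelic reads were a larger part of their reads, with medians of 70.4% in deltaFT and 67.3% in wild type, against 52.5% and 48.95% at the other sites. The part of strain differences in read mapping was not tested.

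The unequal sites with most allelic reads serve as examples. On chromosome 4 at 141322618 to 141323283, first-listed and second-listed reads numbered 360 and 12 in deltaFT and 290 and 4 in wild type, or 96.8% (94.4% to 98.3%) and 98.6% (96.6% to 99.6%) first-listed. Its neighbours stood at 48.7% in deltaFT and 39.0% in wild type. The site lay 179 bp from a stem-cell peak. Its deltaFT peak ran to 141323551, so its deltaFT reads may cover part of that peak. On chromosome 12 at 65482232 to 65482758 there were 201 and 1 reads in deltaFT and 234 and 2 in wild type, while its single neighbour stood at 43.2% in deltaFT and 80.2% in wild type. On chromosome 12 at 105888902 to 105889629 the counts were 517 and 36 in deltaFT and 281 and 17 in wild type, with neighbours at 48.6% and 48.3%.

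For the second-listed allele, chromosome 13 at 4655913 to 4656319 had 23 first-listed and 224 second-listed reads in deltaFT and 25 and 253 in wild type. That is 9.31% (5.99% to 13.6%) and 8.99% (5.90% to 13.0%) first-listed. Its deltaFT peak was also the match of a second wild-type peak. On chromosome 16 at 76451821 to 76452239 there were 27 and 152 reads in deltaFT and 4 and 169 in wild type. There both lines favoured the second-listed allele, while the intervals, 10.2% to 21.2% in deltaFT and 0.633% to 5.81% in wild type, did not overlap. On chromosome 15 at 52215702 to 52216327 the first-listed share was 9.18% (5.53% to 14.1%) in deltaFT and 14.5% (9.71% to 20.6%) in wild type, with overlapping intervals.

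By the number of stem-cell lists with a peak, the share of sites unequal in both lines was highest where there was none. It was 2.51% at 0 lists, 2.03% at 1, 2.48% at 2, 2.26% at 3, 1.48% at 4, 1.64% at 5, 0.992% at 6 and 0.658% at 7. The interval at 0 lists overlapped those at 1 to 5 lists and lay above those at 6 and 7. Overlap of the intervals does not show that the shares are equal. The partly shared sites as 1 class had 1.68% (1.37% to 2.03%, 103 of 6141). This interval lay below that at 0 lists, which was 2.09% to 2.99%. Since no mESC peak overlaps an NPC-only site, their alleles were not read in mESC.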

How the data were processed

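ATAC-seq peak lists of 7 samples were used. Tools were cutadapt, Bowtie2 and MACS2 on build mm9, per the submitters' processing notes. Versions, duplicate handling and any Tn5 shift are not stated there. The authors deposited, for each female line, a list of peaks with an irreproducible discovery rate (IDR) under 0.05, with raw read counts per peak and per allele. They also deposited library and merged TXY lists with fold enrichment (a ratio), −log10 p and q values and an integer score. The labels do not say if the read counts pool the 2 libraries of a line. The IDR lists' text column was split into its 2 library values, 91.4% to 94.3% of which were found in the matching autosomal library lists, and the IDR. No autosomal row was shared between the 2 libraries of an NPC line.

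Starts are printed as the files' starts plus 1. Overlaps were computed with python 3.11.15, numpy 2.4.6 and pandas 2.3.3 and gave the counts of bedtools 2.31.1. Each wild-type peak was matched to the deltaFT peak of largest overlap, which several wild-type peaks could share. Intervals used scipy 1.17.1, and plots matplotlib 3.10.9. Calls were 2-fold, or 80% of at least 20 allelic reads. They were tried on simulated data with counting error only, equal alleles at unchanged sites and no change of peak width. Strain differences in read mapping, repeated molecules and spread between libraries were not simulated, so the error of the calls in these data is not known from it. The interval of a log2 difference conditions on the sum of the reads.

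Named sites are the 10 best by the worse of 2 ranks of level, the nearest to the limits of the definition, the 5 most read unequal sites per allele and the 5 largest differences per direction with 50 reads in each line, some of which are given. The isolated sites, runs and windows were chosen after their values were seen. The sites and lists were chosen with earlier results of these data known. Gene starts, motifs and gene lists were planned and not analysed, as no mm9 annotation or genome was used.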

Additional observations from a re-analysis of the deposited data

How the results depend on the processing

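Of 36 alternatives, 27 changed a count by less than 1.5 times or kept its direction. The 6724 NPC-only sites became 14819 with the mESC IDR list alone as the stem-cell reference, 10603 without the TXY lists and 13844 without the deltaFT list. Without the mESC lists they numbered 6848. Levels 1.5-fold apart were found at 1431 lower (21.3%, background 13.9%) and 744 higher sites (11.1%, background 12.5%). Reads per peak, an alternative added after seeing the data, gave 846 lower and 639 higher sites. Sites unequal on the same allele numbered 307 at 70% (6.22%, background 3.36%, 5 opposite) and 46 at 90% (0.932%, background 0.57%, 0 opposite). They numbered 115 without chromosomes 11 and 19 (2.51%, background 1.47%) and 120 with a deltaFT peak of their own (2.504%, background 1.47%), both added later. Planned results on gene starts, motifs and gene lists were not run. No paired analysis was possible because each group is 1 sample. Sites with few allelic reads could not be classed, and the reads are given once per line, so differences in reads have no replicate check.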
